A study of Malus domestica with 12 samples.

Results

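Buds of apple (Malus domestica cv. Golden Delicious) in early ecodormancy (Stage 3, 1280 chilling hours) were compared with buds in late endodormancy (Stage 2, 1098 chilling hours). The comparison used 3 libraries of Stage 3, here called G, H and I, and 3 libraries of Stage 2, called D, E and F, which are 6 of the 12 small RNA libraries of a series with 4 stages from endodormancy to ecodormancy. Libraries were assigned to stages by the chilling hours and the stage names in the sample labels and by the library letters that the study gives to the columns. All buds were apical floral buds of untreated, field-grown trees of a single orchard and winter, and each library was a biological replicate made from a pool of buds of several trees. Each stage was collected on a single date, so stage, date and weather cannot be told apart. The study used a forcing test, in which cut shoots are kept warm and scored for growth, and placed the end of endodormancy near the Stage 2 date. Small RNAs were isolated with a kit (TraPR) that purifies them by their association with ARGONAUTE (AGO) proteins. The reads thus stand for loaded small RNAs and not for all small RNA of the bud. In pooled whole buds, fewer cells of a type and less of a small RNA per cell cannot be told apart. The deposited tables hold small RNAs alone, so the bud identity could not be checked against marker genes.

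Endodormant buds do not grow even when they are warm, whereas ecodormant buds have met their chilling requirement and wait for warmth. Plant miRNAs of about 21 nucleotides are cut as a duplex out of a hairpin precursor, and the strand kept in AGO guides the cleavage or repression of mRNAs with a nearly complementary site, many of which encode transcription factors. The other strand of the duplex is called the passenger or star strand. Small RNAs of 24 nucleotides mostly direct DNA methylation at transposons and repeats.

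The question was which small RNAs differed when buds passed from late endodormancy to early ecodormancy. Of 370 distinct mature sequences in the tables, 322 had a read in at least 1 of the 6 libraries and 238 passed the filter on low counts and were tested. Only t11329296_x5768, a 21-nucleotide small RNA without a database name, and mdm-miR5225c, a 22-nucleotide miRNA, passed an adjusted p under 0.05 (quasi-likelihood F test of edgeR, Benjamini-Hochberg over all tested sequences), which is 2 of 238 (0.84%), and both were higher at Stage 3. At the unadjusted p of 0.05 or less that the study used, 24 sequences (10.1%) passed, of which 19 (7.98%) were higher and 5 (2.1%) lower at Stage 3. The higher sequences included 3 of miR858 and 2 each of miR171, miR7121 and miR159, and the lower ones 3 variants of miR166. The 3 Stage 3 libraries lay above all 3 libraries of Stage 2 for 24 sequences (10.1%) and below all of them for 17 (7.14%). Of the 238 tested sequences, 134 had a log2 fold change above 0 and 104 below 0.

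The 6 libraries held 561723 to 1727740 mature reads, and 174 to 262 sequences had a read in each. Library H of Stage 3 was the shallowest (561723 reads) and library D of Stage 2 the deepest (1727740 reads), but D had the fewest sequences with a read (174). A count of 0 allows up to 3 reads, which is 1.73 to 3.69 CPM in Stage 3 and 2.58 to 2.96 CPM in Stage 2, for counting error only. CPM are read counts brought to a common library size with edgeR's TMM factors (1.15 to 1.45 at Stage 3 and 0.640 to 1.18 at Stage 2). No libraries of a stage were copies of each other, since the chi-square of their counts divided by its degrees of freedom was 78.3 to 204 within Stage 3 and 49.1 to 255 within Stage 2. Library H was the lowest of Stage 3 for 18 of the 19 higher sequences, and it was not above every Stage 2 library for 10 of them. Library D was the highest of Stage 2 for 11 of the 19 higher sequences and 4 of the 5 lower ones. Without D and H together, an alternative added after the values were seen, 17 sequences (14 higher, 3 lower) passed the adjusted p and 42 the unadjusted p. The adjusted p was passed by 6 sequences without D alone, by 7 without H alone and by 1 without F, and the unadjusted p by 12 without I.

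miR166 alone fills most of each library, and the scaling sets the direction of small changes. The median log2 fold change of the 238 tested sequences was 0.14 with TMM, 0.11 with median-of-ratios scaling, 0.61 with the total of mature reads, -0.29 with the total outside miR165 and miR166 and 0.44 with the total of all reads sequenced per library. The set that passed the unadjusted p, with TMM 19 higher and 5 lower, changed with the scaling. With the total of mature reads 28 passed (26 higher, 2 lower), of which 20 were among the 24. With the total of all reads 26 passed (25 higher, 1 lower), of which 20 were among the 24. With the total outside miR165 and miR166, 23 passed (7 higher, 16 lower), of which only 12 were among the 24. Every one of the 24 sequences kept its direction under these scalings.

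**Figure D1:**
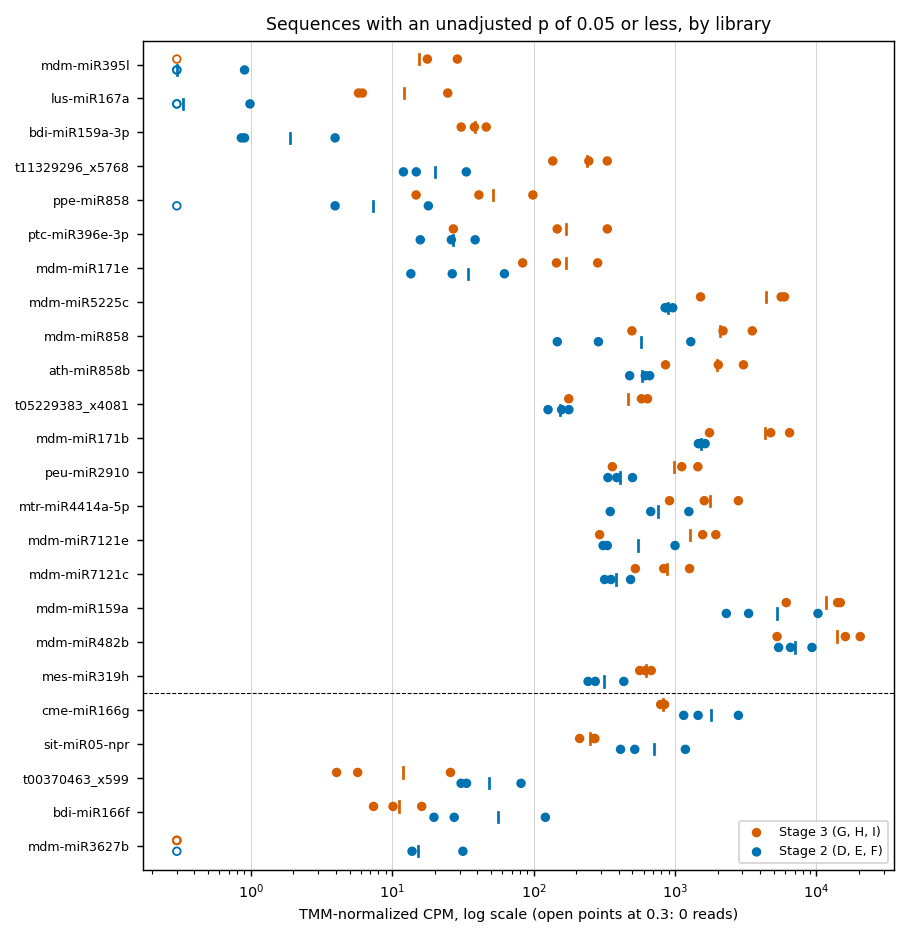
TMM-normalized CPM (log scale) of the 24 sequences with an unadjusted p of 0.05 or less, with 3 Stage 3 libraries (orange) above 3 Stage 2 libraries (blue) for each sequence, vertical ticks at the means and open points for 0 reads. The 19 sequences above the dashed line were higher and the 5 below it lower at Stage 3, and for 10 of the 19 the Stage 3 points reach into the Stage 2 points.

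**Figure D2:**
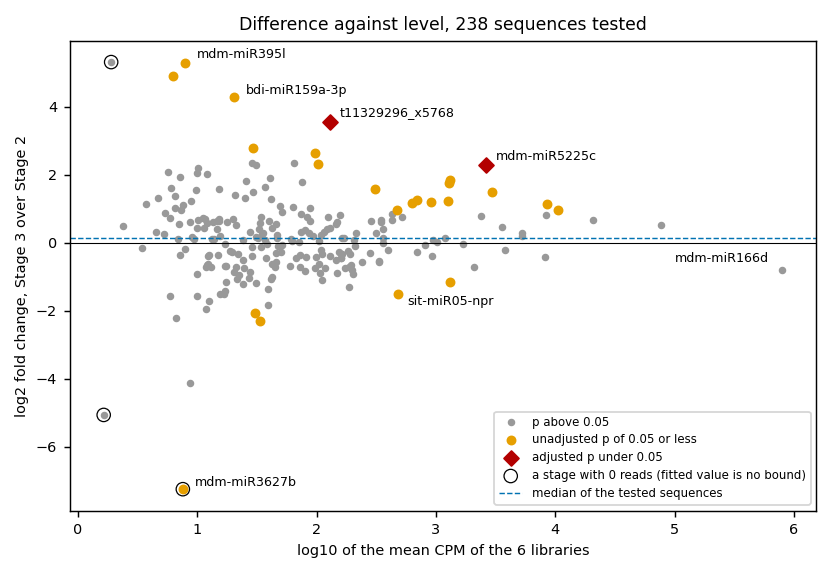
Log2 fold change of Stage 3 over Stage 2 against the log10 mean CPM for the 238 tested sequences, with diamonds for an adjusted p under 0.05, yellow points for an unadjusted p of 0.05 or less and rings where a stage had 0 reads. The 2 diamonds, t11329296_x5768 at 3.56 and mdm-miR5225c at 2.29, lie above the grey points of their level, and the fitted values beyond 4 or below -3 belong to sequences with few reads.

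The largest change that passed the adjusted test was that of t11329296_x5768. Its sequence is given with bases 2 to 8, the seed, in capitals, and below it its precursor on chr8:11111445-11111630 (plus strand, GDDH13 v1.1), where capitals mark this sequence in the 5′ arm (bases 11 to 31) and mdm-miR10987, the apple miRNA on the opposite arm (bases 159 to 179).
t11329296_x5768: tATATGGAgggaaatatggtg
Precursor of t11329296_x5768: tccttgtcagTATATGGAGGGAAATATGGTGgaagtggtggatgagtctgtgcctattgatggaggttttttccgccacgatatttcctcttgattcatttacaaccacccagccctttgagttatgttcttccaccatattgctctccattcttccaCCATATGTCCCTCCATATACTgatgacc

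The sequence had 332, 137 and 246 CPM in libraries G, H and I of Stage 3, against 33.4, 12 and 14.8 CPM in libraries D, E and F of Stage 2. The lowest Stage 3 library was above the highest Stage 2 library. It averaged 238 ± 97.8 CPM at Stage 3 and 20.1 ± 11.6 CPM at Stage 2 (SD, n = 3 each), with a log2 fold change of 3.56 (SE 0.514, adjusted p 0.000151 by the quasi-likelihood F test of edgeR). It passed the adjusted test with each of the 6 libraries left out in turn, with values of 3.22 without F to 4.34 without D. The opposite arm, mdm-miR10987, had 0, 0 and 10 reads at Stage 3 and 0, 0 and 5 reads at Stage 2, so nearly all reads of this hairpin came from the arm without a database name. At the other stages, which the comparison did not use, the sequence had 25.1 to 33.2 CPM at Stage 1 and 999 to 1540 CPM at Stage 4. The libraries of Stages 1 and 2 thus overlapped, Stage 3 was above both and Stage 4 above Stage 3, with no overlap between the libraries of Stages 3 and 4.

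The other sequence that passed, mdm-miR5225c, was the more abundant. It is printed with mdm-miR5225a, the other tested sequence of the family, and mdm-miR3627b, whose hairpin lies on the same strand of chromosome 9 (seed in capitals). Counted from the 5′ end, with the base of mdm-miR5225c first, mdm-miR5225a carries T8A and G9A.
mdm-miR5225c: tCTGTCGTgggtgagatggtgc
mdm-miR5225a: tCTGTCGAaggtgagatggtgc
mdm-miR3627b: tCGCAGGAgagatggcacta

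The hairpin of mdm-miR5225c is on chr9:2851317-2851414 and that of mdm-miR3627b on chr9:2848282-2848395, both on the plus strand and 2921 bases apart. Capitals mark the mature strand on the 5′ arm and the star strand on the 3′ arm.
Precursor of mdm-miR5225c: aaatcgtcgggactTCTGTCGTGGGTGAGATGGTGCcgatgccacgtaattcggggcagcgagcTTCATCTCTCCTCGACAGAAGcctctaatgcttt
Precursor of mdm-miR3627b: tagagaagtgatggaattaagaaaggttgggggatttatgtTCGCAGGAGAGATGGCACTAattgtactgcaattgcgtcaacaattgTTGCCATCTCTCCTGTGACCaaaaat

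In libraries G, H and I of Stage 3 mdm-miR5225c had 5947, 1516 and 5635 CPM, against 964, 851 and 871 CPM in D, E and F of Stage 2. All Stage 3 libraries were above Stage 2, but H was closer to Stage 2 than to G and I. The means were 4366 ± 2473 CPM at Stage 3 and 896 ± 60.4 CPM at Stage 2 (SD, n = 3 each), and the log2 fold change was 2.29 (SE 0.448, adjusted p 0.0051 by edgeR's quasi-likelihood test). The adjusted p by the same test was 0.0529 without library F and 0.0637 when only the 6 libraries were fitted, so the call was lost in both. Nearly all reads of the miR5225 family were those of mdm-miR5225c (10286 of 10289 in G and 1067 of 1099 in D). The family result thus repeats the same call and gives it no further support. The miR5225 family as a whole had a log2 fold change of 2.26 (SE 0.448, adjusted p 0.00435 by edgeR) and was the only one of 53 families (1.89%) to pass the adjusted test, which it missed with only the 6 libraries (adjusted p 0.0669). These 53 are 51 name families and the pools of unnamed sequences of 20 to 23 and of 24 nucleotides. With an unadjusted p of 0.05 or less, 9 of the 53 families (17%) passed, 7 higher and 2 lower at Stage 3.

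mdm-miR3627b and mdm-miR5225a had values of the opposite sign but were scarce. mdm-miR3627b had 0 reads in the 3 libraries of Stage 3, against 35, 0 and 14 reads in D, E and F of Stage 2, and was thus at least 20.5-fold lower at Stage 3 with the 0 reads counted as 3 over the stage (unadjusted p 0.0185, adjusted p 0.294, edgeR). Without library D, which held 35 of its 49 reads, the bound was 8.83-fold. mdm-miR5225a had 3, 0 and 1 reads at Stage 3, against 32, 16 and 7 reads at Stage 2, with no overlap between the stages and a log2 fold change of -4.11 (SE 2.19, adjusted p 0.555, edgeR).

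The miR858 family cuts mRNAs of R2R3 MYB transcription factors, which in Arabidopsis control the synthesis of flavonoids and other phenylpropanoids. Of its 4 tested sequences, 3 passed the unadjusted p, all of them higher at Stage 3, beside 24 of 238 over all tested sequences. With the total outside miR165 and miR166, 1 of 4 passed. The 3 that passed with TMM are printed because they share the seed and differ at the ends. Relative to ath-miR858b, counted from the 5′ end, mdm-miR858 carries T20G and G21A and ppe-miR858 carries T1C.
ath-miR858b: tTCGTTGTctgttcgaccttg
mdm-miR858: tTCGTTGTctgttcgacctga
ppe-miR858: cTCGTTGTctgttcgaccttg

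ath-miR858b had 2025, 857 and 3049 CPM in G, H and I of Stage 3, against 663, 616 and 478 CPM in D, E and F of Stage 2, with no overlap. Its log2 fold change was 1.76 (SE 0.465, unadjusted p 0.00107, adjusted p 0.0846, edgeR), and the adjusted p ranged from 0.00587 to 0.719 over the alternatives, with 0.0119 without library H and 0.719 without library I. mdm-miR858 had 2186, 496 and 3520 CPM at Stage 3, against 1293, 288 and 147 CPM at Stage 2, and overlapped because H was below D. Its log2 fold change was 1.84 (SE 0.691, adjusted p 0.253), and it became 3.43 without library D (adjusted p 0.0143, edgeR) but 1.14 without F (adjusted p 0.565) and 1.29 without I (adjusted p 0.987). The scarcer ppe-miR858 had 41.0, 14.8 and 98.9 CPM at Stage 3, against 0, 18 and 3.95 CPM at Stage 2 (log2 fold change 2.80, SE 1.34, adjusted p 0.478), and its value was 1.98 without I and 4.69 without E.

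The family sum of miR858 was 4110 ± 2666 CPM at Stage 3 and 1178 ± 693 CPM at Stage 2 (SD, n = 3 each), a log2 fold change of 1.80 (SE 0.539, adjusted p 0.0627, edgeR). Without library D this was 2.56 (adjusted p 0.00512) and without library H 2.02 (adjusted p 0.0107, edgeR), but 1.29 without F (adjusted p 0.266) and 1.32 without I (adjusted p 0.229), so the call depended on these libraries. A site that the study predicted for ath-miR858b in MD15G1215500, a MYB gene, is printed 5′ to 3′ with the bases opposite positions 2 to 8 of the miRNA in capitals. mRNA levels were not analysed here.
Predicted site in MD15G1215500: ccagggcgaacagACAAUGAa

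The miR171 family cuts mRNAs of GRAS transcription factors of the HAM type, which keep shoot meristems undifferentiated. Of its 4 tested sequences, 2 passed the unadjusted p, both higher at Stage 3, beside 24 of 238 over all tested sequences. With the total outside miR165 and miR166, 2 of 4 passed as higher. Those that passed with TMM were the main sequence mdm-miR171b and the scarcer mdm-miR171e. They are printed to show that the second starts 3 bases upstream of the first and differs at 1 of the 18 shared positions.
mdm-miR171b: tTGAGCCGcgtcaatatctcc
mdm-miR171e: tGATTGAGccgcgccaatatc

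mdm-miR171b had 4753, 1755 and 6461 CPM in G, H and I, against 1634, 1463 and 1500 CPM in D, E and F. The Stage 2 libraries lay close together, and H exceeded them only narrowly. The log2 fold change was 1.5 (SE 0.443, unadjusted p 0.00276, adjusted p 0.164, edgeR), and it became 1.73 without library H (adjusted p 0.0119), 1.32 without F (adjusted p 0.376) and 1.15 without I (adjusted p 0.719). mdm-miR171e had 145, 83.7 and 284 CPM at Stage 3, against 13.6, 26.6 and 62.2 CPM at Stage 2, with no overlap (log2 fold change 2.33, SE 0.731, adjusted p 0.167, and 1.80 without I to 2.96 without F). Of the other 2 tested members of this family, mdm-miR171i had a log2 fold change of 1.79 (adjusted p 0.641) and mdm-miR171j of -0.34 (adjusted p 0.957). Sequences that differ by few bases may share reads, since the mismatches allowed in the counting are not given in the sources used here.

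The miR159 family cuts mRNAs of GAMYB-like MYB factors, which in Arabidopsis (MYB33 and MYB65) act in responses to abscisic acid and gibberellin. Of 12 tested members, 11 had a log2 fold change above 0, beside 134 of 238 over all tested sequences. The unadjusted p was passed by 2 members, both higher, beside 24 of 238 over all. The median was 0.55 beside 0.14 over all tested sequences. Under the scaling by the total outside miR165 and miR166, only 6 of the 12 were above 0 and the median was 0.04. Of them, 4 are printed, the most abundant one and 3 forms that begin with C and vary at the 3′ end. Relative to mdm-miR159a, counted from the 5′ end, bdi-miR159a-3p carries C20T, and ptc-miR159d is the same sequence with 1 more base.
mdm-miR159d: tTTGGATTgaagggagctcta
mdm-miR159a: cTTGGATTgaagggagctcc
bdi-miR159a-3p: cTTGGATTgaagggagctct
ptc-miR159d: cTTGGATTgaagggagctcct

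mdm-miR159d, the second most abundant sequence of the libraries, had 96152, 51743 and 123178 CPM at Stage 3, against 67512, 63278 and 57295 CPM at Stage 2. The stages overlapped, with H below all of Stage 2, and the log2 fold change of 0.53 (SE 0.369, adjusted p 0.726) turned to -0.04 with the total outside miR165 and miR166. mdm-miR159a had 14763, 6120 and 14133 CPM at Stage 3, against 10259, 3316 and 2308 CPM at Stage 2, where D stood above H (log2 fold change 1.14, SE 0.518, unadjusted p 0.0387, adjusted p 0.455, edgeR). Without library D the value was 2.25 (adjusted p 0.0423), and without F it was 0.59 (adjusted p 0.787). bdi-miR159a-3p had 38.2, 30.8 and 46.3 CPM at Stage 3, against 0.904, 0.858 and 3.95 CPM at Stage 2, that is 66, 25 and 73 reads against 1, 1 and 4 reads (log2 fold change 4.28, SE 1.51, adjusted p 0.253, and 5.18 without F). ptc-miR159d had 133, 187 and 146 CPM at Stage 3, against 101, 85.8 and 88.9 CPM at Stage 2, without overlap (log2 fold change 0.75, SE 0.464, adjusted p 0.674). The site that the study predicted for mdm-miR159a in MD07G1085000, which it names MdMYB33, is printed in the same way as above.
Predicted site in MD07G1085000: ggagcucccuucACUCCAAu

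A pair of the higher small RNAs came from inside the long hairpins of miR159 and miR319, nearer to the loop than the miRNA itself. t05229383_x4081, which has no database name, lies in the hairpin of mdm-miR159d on chr14:31363297-31363521 (plus strand, bases 136 to 156), and mdm-miR159d itself at bases 180 to 200. mtr-miR4414a-5p lies at bases 52 to 72 of the hairpin of cme-miR319c on chr16:2192699-2192883 (minus strand), and cme-miR319c itself at bases 160 to 179. Capitals mark these pairs in the hairpins, and the 2 inner small RNAs follow with the seed in capitals.
Hairpin of mdm-miR159d: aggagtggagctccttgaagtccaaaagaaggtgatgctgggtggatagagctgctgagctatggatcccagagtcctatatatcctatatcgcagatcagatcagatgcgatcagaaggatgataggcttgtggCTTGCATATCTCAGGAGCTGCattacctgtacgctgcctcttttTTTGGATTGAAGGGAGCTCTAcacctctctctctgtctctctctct
Hairpin of cme-miR319c: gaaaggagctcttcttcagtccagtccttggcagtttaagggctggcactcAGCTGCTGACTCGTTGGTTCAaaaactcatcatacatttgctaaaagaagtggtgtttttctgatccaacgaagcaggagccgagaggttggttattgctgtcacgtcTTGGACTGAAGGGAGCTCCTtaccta
t05229383_x4081: cTTGCATAtctcaggagctgc
mtr-miR4414a-5p: aGCTGCTGactcgttggttca

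t05229383_x4081 had 579, 177 and 639 CPM in G, H and I, against 127, 178 and 158 CPM in D, E and F. Library H was level with Stage 2, while G and I were above it (log2 fold change 1.6, SE 0.51, unadjusted p 0.00492, adjusted p 0.167, edgeR), and the value was 1.87 without H (adjusted p 0.0204), 1.41 without G (adjusted p 0.558) and 1.36 without I (adjusted p 0.719). mtr-miR4414a-5p had 1611, 915 and 2807 CPM at Stage 3, against 1254, 674 and 349 CPM at Stage 2, with H below D (log2 fold change 1.23, SE 0.509, adjusted p 0.344, and 0.69 without F to 1.98 without D). The miRNA of its hairpin, cme-miR319c, had 5377, 5761 and 6413 CPM at Stage 3, against 3255, 4921 and 6072 CPM at Stage 2 (log2 fold change 0.30, SE 0.341, adjusted p 0.945). mtr-miR4414a-5p is also listed as the star strand of mdm-miR319c-3p on chromosome 13, so its reads cannot be assigned to a single hairpin. Other inner small RNAs of miR319 hairpins did not pass the unadjusted p. mdm-miR319c-3p, inside the chromosome 13 hairpin of cme-miR319c, had a log2 fold change of 0.13 (SE 0.360, adjusted p 0.957, edgeR). The scarce t03063567_x79, inside hairpins of mdm-miR319a on chromosomes 3 and 11, had 0.56 (SE 1.91, adjusted p 0.963, edgeR).

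Of the miR319 family, which cuts mRNAs of TCP factors of leaf growth, 11 of 12 tested sequences had a log2 fold change above 0 (median 0.90). Over all tested sequences 134 of 238 did. With the total outside miR165 and miR166, 7 of the 12 were above 0. The family sum had a log2 fold change of 0.01 (SE 0.302, adjusted p 0.981, edgeR). Its most abundant sequence mdm-miR319a had 7555, 5529 and 8070 CPM at Stage 3, against 10687, 7471 and 10084 CPM at Stage 2 (log2 fold change -0.42, SE 0.356, adjusted p 0.844). The unadjusted p was passed by 1 of the 12, beside 24 of 238 over all tested sequences. This was mes-miR319h, with 616, 563 and 679 CPM at Stage 3, against 273, 243 and 434 CPM at Stage 2 and no overlap (log2 fold change 0.97, SE 0.400, unadjusted p 0.0246, adjusted p 0.344, edgeR). It matches mdm-miR159a at 19 of 20 aligned bases, so reads of both families lie close in sequence.

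The miR482 and miR2118 families cut mRNAs of NBS-LRR resistance proteins. Of 6 tested members, 5 had a log2 fold change above 0 (median 0.55), beside 134 of 238 over all tested sequences. The unadjusted p was passed by 1 member, beside 24 of 238 over all. With the total outside miR165 and miR166, 3 of 6 were above 0. The 2 main sequences are printed because they share the seed and differ only at T10A, with the base of mdm-miR482b first.
mdm-miR482b: tCTTTCCTatccctcccattcc
mdm-miR482c: tCTTTCCTaaccctcccattcc

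mdm-miR482b had 16030, 5267 and 20412 CPM in G, H and I, against 9306, 5405 and 6558 CPM in D, E and F, with H below all of Stage 2 (log2 fold change 0.97, SE 0.442, unadjusted p 0.0389, adjusted p 0.455, edgeR). mdm-miR482c had 11751, 4729 and 15328 CPM at Stage 3, against 7061, 5296 and 5642 CPM at Stage 2, and H was again the lowest of the 6 libraries (log2 fold change 0.82, SE 0.431, adjusted p 0.555). mdm-miR482d, on the opposite arm of mdm-miR482b (chr13:2393892-2394065, minus strand), had 3905, 3488 and 5006 CPM at Stage 3, against 2842, 3188 and 2999 CPM at Stage 2 (log2 fold change 0.46, SE 0.321, adjusted p 0.726). Unlike the guide strands, it did not overlap between the stages.

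Names given first in apple and other Rosaceae formed another group. Of the 9 tested sequences of the miR7120 to miR7127 families, 7 had a log2 fold change above 0 (median 1.08), beside 134 of 238 over all tested sequences. The unadjusted p was passed by 2 of them, both higher, beside 24 of 238 over all. With the total outside miR165 and miR166 the median was 0.48, 6 of 9 were above 0, and none passed as higher and 1 as lower. Those that passed with TMM were mdm-miR7121c and mdm-miR7121e, which differ only at the last base (T21C, with the base of mdm-miR7121c first) and come from hairpins on chromosome 2.
mdm-miR7121c: tCCTCTTGgtgatcgccctgt
mdm-miR7121e: tCCTCTTGgtgatcgccctgc

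mdm-miR7121c had 832, 524 and 1268 CPM at Stage 3, against 485, 353 and 318 CPM at Stage 2, without overlap (log2 fold change 1.18, SE 0.433, unadjusted p 0.0122, adjusted p 0.253, edgeR). mdm-miR7121e had 1569, 293 and 1943 CPM at Stage 3, against 1001, 332 and 310 CPM at Stage 2, with H below all of Stage 2 (log2 fold change 1.21, SE 0.561, adjusted p 0.455, and 0.71 without F to 2.16 without D). mdm-miR7120a-3p, the most abundant of the group, had 3112, 1363 and 4521 CPM at Stage 3, against 1823, 1807 and 1617 CPM at Stage 2 (log2 fold change 0.78, SE 0.425, adjusted p 0.565). The arms of the miR7126 hairpin had values of opposite sign, but neither passed the unadjusted p and they were not tested against each other. The 3p arm had 83.3, 81.2 and 50.1 CPM at Stage 3, against 213, 118 and 124 CPM at Stage 2 (log2 fold change -1.09, SE 0.636, adjusted p 0.641), whereas the 5p arm had 147, 118 and 152 CPM at Stage 3, against 38.9, 131 and 147 CPM at Stage 2 (log2 fold change 0.40, SE 0.593, adjusted p 0.957).

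The miR165 and miR166 families, which cut mRNAs of HD-ZIP III transcription factors of meristems and organ polarity, filled most of the libraries and leaned the other way. They took 72.9%, 79.6% and 66.2% of the mature reads in G, H and I of Stage 3, against 89.9%, 82.0% and 86.8% in D, E and F of Stage 2. Every Stage 3 library was below every Stage 2 library. The means were 72.9% ± 6.66 at Stage 3 and 86.3% ± 3.97 at Stage 2 (SD, n = 3 each), a difference of -13.3 percentage points. In an exact two-sided permutation test the p was 0.10, the smallest that 3 against 3 libraries allow (adjusted over 5 shares, 0.125).

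Nearly all of these reads were mdm-miR166d, which is listed at 5 hairpins and had 1086168, 443716 and 891166 reads at Stage 3, against 1545121, 802971 and 981170 reads at Stage 2. The log2 fold change of its scaled counts was -0.81 (SE 0.443, adjusted p 0.565, edgeR). Of the 16 tested sequences that bear the names of both families, 12 were below 0 (median -0.67), beside 104 of 238 over all tested sequences. The unadjusted p was passed by 2 members, both lower, beside 24 of 238 (10.1%) over all. For 9 members all Stage 3 libraries were below Stage 2, beside 17 of 238 (7.14%) over all. Under the total of mature reads 10 of 16 were below 0 and none passed the unadjusted p, and under the total outside these families 13 were below 0 and 6 passed it. Some sequences with other names, such as sit-miR05-npr, are also close to mdm-miR166d. By sequence, 20 tested forms shared at least 16 aligned bases with it. Of these 20, 15 were below 0 and 5 above with TMM (median -0.61), and 3 passed the unadjusted p, all lower.

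The variants of miR166 are printed to show where they start relative to mdm-miR166d. sit-miR05-npr and bdi-miR166f start 2 bases upstream and so have another seed, gma-miR166m starts 1 base downstream, and cme-miR166g lacks the last base.
mdm-miR166d: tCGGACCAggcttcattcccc
cme-miR166g: tCGGACCAggcttcattccc
gma-miR166m: cGGACCAGgcttcattcccc
sit-miR05-npr: tTTCGGACcaggcttcattcc
bdi-miR166f: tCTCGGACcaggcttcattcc

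sit-miR05-npr had 268, 212 and 271 CPM at Stage 3, against 1184, 412 and 519 CPM at Stage 2, without overlap and with D far above E and F (log2 fold change -1.49, SE 0.465, unadjusted p 0.00411, adjusted p 0.167, edgeR). Without D the value was -0.71 (adjusted p 0.730). cme-miR166g had 792, 843 and 821 CPM at Stage 3, against 2808, 1153 and 1457 CPM at Stage 2 (log2 fold change -1.14, SE 0.423, adjusted p 0.253), and -0.49 without D. bdi-miR166f had 16.2, 7.39 and 10.1 CPM at Stage 3, against 121, 27.5 and 19.7 CPM at Stage 2 (log2 fold change -2.30, SE 1.06, adjusted p 0.455), and -0.84 without D (adjusted p 0.931). gma-miR166m had 1728, 1573 and 1430 CPM at Stage 3, against 2708, 2194 and 2775 CPM at Stage 2 (log2 fold change -0.70, SE 0.373, adjusted p 0.555).

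Set against mdm-miR166d itself, the variants behaved differently. sit-miR05-npr had 4.27, 3.88 and 4.80 reads for each 10000 reads of mdm-miR166d at Stage 3, against 8.48, 5.98 and 5.36 at Stage 2, so Stage 3 stayed below Stage 2. cme-miR166g had 12.6, 15.4 and 14.5 at Stage 3, against 20.1, 16.7 and 15 at Stage 2, with overlap. The pooled ratio of osa-miR166e-3p was 1.81 reads for each 10000 at Stage 3 and 1.88 at Stage 2, and that of mes-miR166i 2.39 at Stage 3 and 2.31 at Stage 2. cpa-miR166d varied within the stages, with 1.11, 2.77 and 1.30 at Stage 3, against 0.0777, 1.59 and 2.54 at Stage 2. bdi-miR166f overlapped, with 0.258, 0.135 and 0.180 at Stage 3, against 0.867, 0.399 and 0.204 at Stage 2. Every Stage 3 library was above Stage 2 for hbr-miR166a, sit-miR58-1-npr and the scarcer aqc-miR166c. hbr-miR166a had 4.02, 2.88 and 3.84 at Stage 3, against 1.88, 2.45 and 1.69 at Stage 2. sit-miR58-1-npr had 2.26, 2.61 and 2.90 at Stage 3, against 0.324, 1.96 and 1.59 at Stage 2. aqc-miR166c had 0.230, 0.270 and 0.337 at Stage 3, against 0.0194, 0 and 0.0917 at Stage 2. Of the 29 forms listed, no other lay wholly above, and only sit-miR05-npr lay wholly below.

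**Figure D3:**
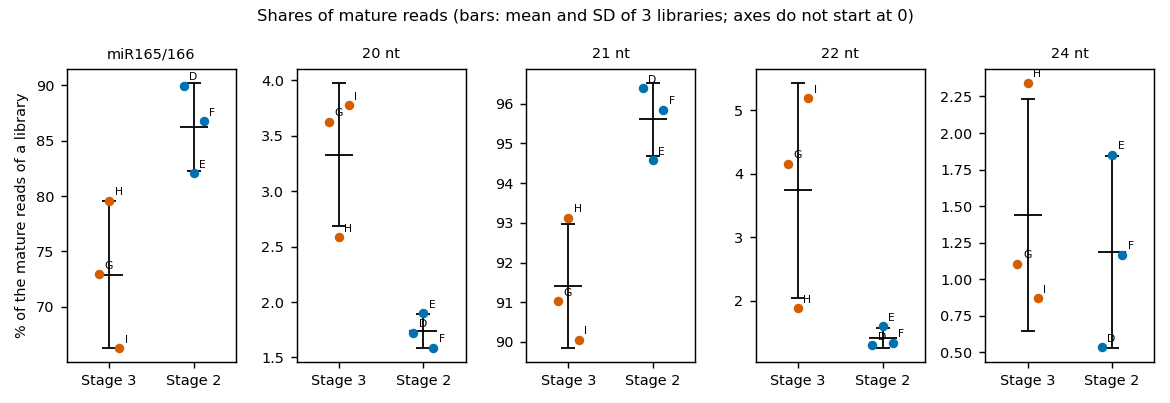
Percent of the mature reads of each library taken by miR165 and miR166 and by sequences of 20, 21, 22 and 24 nucleotides, with 3 Stage 3 libraries (orange) left of 3 Stage 2 libraries (blue), letters for libraries and bars for the mean and SD. The first 4 panels show no overlap between the stages, and in the 24-nucleotide panel the stages overlap.

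The length classes moved with the miR166 share. Sequences of 20 nucleotides took 3.63%, 2.59% and 3.78% of the mature reads at Stage 3, against 1.72%, 1.90% and 1.59% at Stage 2. Those of 22 nucleotides took 4.16%, 1.88% and 5.19% at Stage 3, against 1.29%, 1.6% and 1.34% at Stage 2. Those of 21 nucleotides, which hold mdm-miR166d, took 91.4% ± 1.57 at Stage 3 and 95.6% ± 0.926 at Stage 2 (SD, n = 3 each). Each of these classes had an exact permutation p of 0.10, the smallest possible (adjusted 0.125). Among the reads outside miR165 and miR166 the stages overlapped in every class, with 69.4% ± 1.89 at Stage 3 and 70.8% ± 2.32 at Stage 2 for 21 nucleotides (exact permutation p 0.40) and 13.3% ± 3.58 at Stage 3 and 10.5% ± 2.01 at Stage 2 for 22 nucleotides (exact permutation p 0.30).

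Small RNAs of 24 nucleotides took 1.11%, 2.34% and 0.869% of the mature reads at Stage 3, against 0.536%, 1.85% and 1.17% at Stage 2 (exact permutation p 0.70), with library H highest and D lowest. Of 93 tested sequences of this length, all without a database name, 36 had a log2 fold change above 0 and 57 below 0 (median -0.25). Over all 238 tested sequences 134 were above 0 and 104 below. Only t00370463_x599 of this length passed the unadjusted p, beside 24 of 238 over all. It had 4.05, 25.8 and 5.70 CPM at Stage 3, against 30.7, 81.5 and 33.6 CPM at Stage 2 (log2 fold change -2.06, SE 0.975, adjusted p 0.475, edgeR), and its value was -1.44 without E and -3.40 without H. t00205877_x43290, the most abundant of this length, had 3158, 5186 and 2227 CPM at Stage 3, against 3069, 5216 and 3915 CPM at Stage 2, and its log2 fold change of -0.21 (SE 0.366, adjusted p 0.957) turned positive with the total of mature reads. Among the 96 tested sequences of 21 nucleotides the median was 0.58, with 14 higher and 2 lower at the unadjusted p. Sequences that begin with C had a median of 0.78 (27 tested, 7 higher), those with T 0.37 (96 tested, 11 higher and 4 lower) and those with A -0.09 (101 tested, 1 higher and 1 lower). Beside these stand a median of 0.14, 19 higher and 5 lower over all 238 tested sequences. All of these values are with TMM, and the median over all ran from -0.29 to 0.61 with the scaling.

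**Figure D4:**
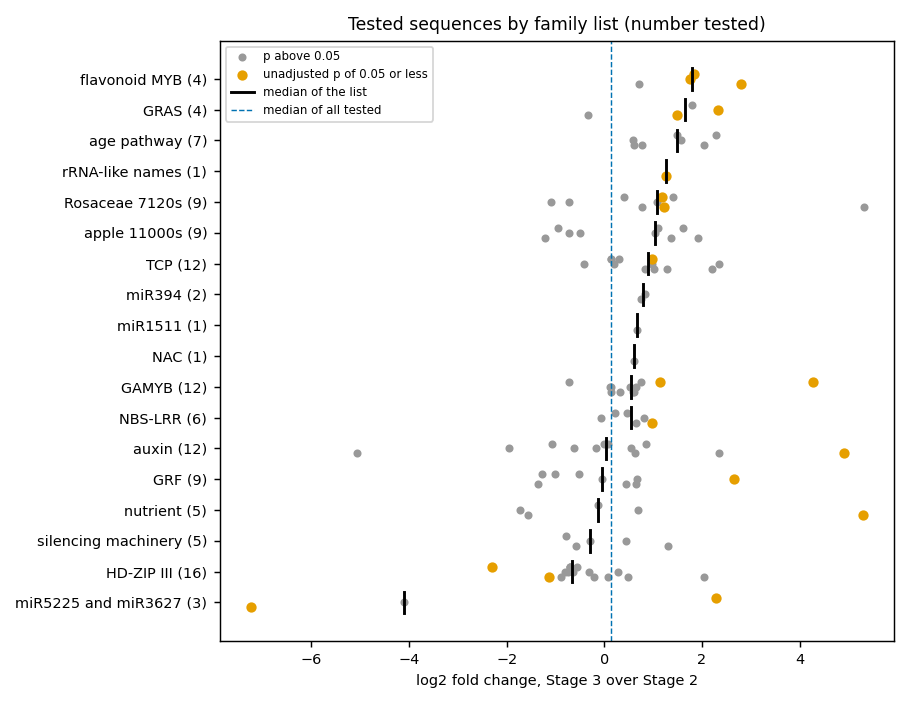
Log2 fold change of Stage 3 over Stage 2 for the tested sequences of each family list, with the number tested in brackets, yellow points for an unadjusted p of 0.05 or less, black ticks for the list median and a dashed line for the median of all tested sequences (0.14). The flavonoid MYB list (miR858) had a median of 1.80, the GRAS list (miR171) of 1.64 and the HD-ZIP III list (miR165 and miR166) of -0.67.

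Families of growth and developmental timing had few reads or small differences. miR156 and miR157 cut SPL mRNAs, which promote adult growth and flowering, miR172 acts on AP2-like mRNAs, and miR535 is related to miR156. All 7 tested sequences of these families had a log2 fold change above 0 (median 1.49 with TMM), beside 134 of 238 over all tested sequences. With the total outside miR165 and miR166, 6 of 7 did. With TMM 0 passed the unadjusted p, beside 24 of 238 over all. gma-miR156k had 97.7, 89.9 and 129 CPM at Stage 3, against 47, 55.8 and 82.9 CPM at Stage 2 (log2 fold change 0.77, SE 0.674, adjusted p 0.844). mdm-miR172m had 40, 10 and 53 reads at Stage 3, against 0, 13 and 12 reads at Stage 2. mdm-miR164c, of the family that cuts CUC mRNAs of organ boundaries, had 408, 220 and 631 CPM at Stage 3, against 144, 394 and 289 CPM at Stage 2 (log2 fold change 0.61, SE 0.477, adjusted p 0.816).

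For growth-regulating factors, cut by miR396, 4 of 9 tested sequences were above 0 (median -0.04), and 6 of 9 with the total of mature reads (median 0.32). With TMM, 134 of 238 were above 0 over all tested sequences. The unadjusted p was passed by 1 of the 9, beside 24 of 238 over all. mdm-miR396d, the most abundant, had 1840, 1448 and 1700 CPM at Stage 3, against 854, 2059 and 2224 CPM at Stage 2 (log2 fold change -0.04, SE 0.369). The only member past the unadjusted p was ptc-miR396e-3p, with 147, 27.1 and 332 CPM at Stage 3, against 26.2, 38.6 and 15.8 CPM at Stage 2, where H lay within Stage 2 (log2 fold change 2.65, SE 1.00, adjusted p 0.253, edgeR), and its value was 1.77 without I (adjusted p 0.987). By its name it is the opposite strand of miR396 and not the guide, as are aly-miR396a-3p (log2 fold change 0.64) and gma-miR396a-3p (0.66). Among the other tested sequences only pab-miR396b (0.43) was above 0 with TMM. Those below 0 were mdm-miR396a (-0.52), mdm-miR396b (-1.36), mdm-miR396d, mdm-miR396g (-1.29) and vvi-miR396b (-1.01).

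Auxin signalling is reached by miR160 and miR167 (ARF mRNAs), miR393 (receptor mRNAs) and miR390 (trans-acting siRNAs). Of 12 tested sequences, 6 were above 0 and 6 below (median 0.03), and the median was -0.55 with the total outside miR165 and miR166. With TMM, 134 of 238 were above 0 over all tested sequences. The unadjusted p was passed by 1 of the 12, beside 24 of 238 over all. mdm-miR167g had 521, 358 and 790 CPM at Stage 3, against 286, 355 and 278 CPM at Stage 2, without overlap (log2 fold change 0.86, SE 0.443, adjusted p 0.555). mdm-miR393c had 419, 165 and 494 CPM at Stage 3, against 356, 363 and 366 CPM at Stage 2 (log2 fold change -0.01, SE 0.430). mdm-miR390e had 124, 210 and 186 CPM at Stage 3, against 71.4, 72.9 and 213 CPM at Stage 2 (log2 fold change 0.54, SE 0.485). lus-miR167a passed the unadjusted p with 10, 5 and 39 reads in G, H and I of Stage 3, against 0, 0 and 1 reads in D, E and F of Stage 2, a ratio of 43 with an exact 95% counting interval of 7.40 to 1731. Without library I, which held most of its reads, the ratio was 19.4 with an interval of 2.98 to 816.

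Families that answer to sulfate, copper or phosphate supply (miR395, miR397, miR398, miR399, miR408 and miR827) had 5 tested sequences, of which 1 passed the unadjusted p. Beside this and the other counts of this paragraph stand 24 of 238 (10.1%) past the unadjusted p and 134 of 238 above 0 over all tested sequences. mdm-miR395l, of the sulfate family, had 50, 0 and 28 reads in G, H and I, against 1, 0 and 0 reads in D, E and F, a ratio of 62.2 with a counting interval of 10.8 to 2487. Its reads at Stage 3 were thus absent from H, and without library G the ratio was 38.5 with an interval of 6.36 to 1573. miR162, miR168 and miR403, which act on mRNAs of DCL1, AGO1 and AGO2, had 5 tested sequences with 0 past the unadjusted p (median -0.29, and 0.09 with the total of mature reads). mdm-miR162a had 117, 170 and 151 CPM at Stage 3, against 168, 299 and 293 CPM at Stage 2 (log2 fold change -0.79, SE 0.459, adjusted p 0.641). mdm-miR1511 was abundant, with 23606, 20404 and 32218 CPM at Stage 3, against 7361, 20094 and 20678 CPM at Stage 2, where D stood apart (log2 fold change 0.66, SE 0.423, adjusted p 0.701). miR394, which cuts the mRNA of the F-box protein LCR, had 2 tested sequences with a median of 0.80 and 0 past the unadjusted p. Of 26 sequences with apple names between miR10978 and miR11017, 9 were tested, 5 were above 0 and 4 below, and 0 passed the unadjusted p (median 1.04). The 2 sequences of miR169, which cuts NF-YA mRNAs, had too few reads to be tested.

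peu-miR2910, a name given in poplar to a sequence that resembles ribosomal RNA, had 1116, 361 and 1452 CPM at Stage 3, against 388, 336 and 501 CPM at Stage 2, with H inside Stage 2 (log2 fold change 1.26, SE 0.463, unadjusted p 0.0125, adjusted p 0.253, edgeR). The value was 1.52 without H (adjusted p 0.0365) and 0.92 without I (adjusted p 0.987, edgeR). It was higher along with the miRNAs above, and the part of RNA quality in those results was not tested. Sequences named in a database had a median of 0.49 (125 tested, 17 higher and 4 lower at the unadjusted p), and those without a name of -0.11 (113 tested, 2 higher and 1 lower). Over all 238 tested sequences the median was 0.14, with 19 higher and 5 lower.

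Of the 17 miRNAs that the study chose as differentially expressed on these same libraries, all were tested and 11 passed the unadjusted p, 10 higher and 1 lower. Over all tested sequences 24 of 238 passed. The 17 were picked from these 12 libraries, so the count is no independent support. The study tested the later stages against Stage 1 and kept what edgeR and DESeq2 shared, so its 17 need not differ between Stages 3 and 2. Those that did not pass in this comparison were mdm-miR164c, mdm-miR390e, mdm-miR482c, ptc-miR159d, t00205877_x43290 and t08515395_x8579. The last had 587, 396 and 914 CPM at Stage 3, against 1322, 430 and 542 CPM at Stage 2, and its log2 fold change of -0.27 (SE 0.469) turned positive with the total of mature reads.

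**Figure D5:**
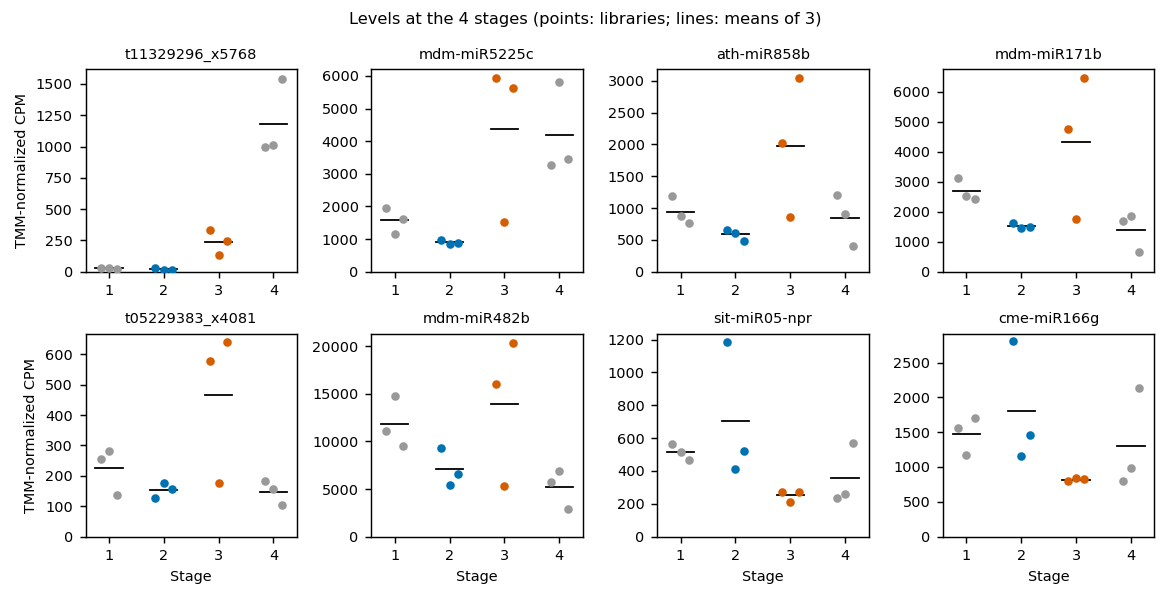
TMM-normalized CPM of 8 sequences in the 3 libraries of each of Stages 1 to 4, with lines at the means, Stage 3 in orange and Stage 2 in blue. t11329296_x5768 reached 137 to 332 CPM at Stage 3 and 999 to 1540 CPM at Stage 4, whereas ath-miR858b, mdm-miR171b and t05229383_x4081 had their highest mean at Stage 3.

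Placed among all 4 stages, the higher sequences did not share a course. These courses are given as descriptions, with no test. mdm-miR5225c had 1148 to 1952 CPM at Stage 1, 851 to 964 CPM at Stage 2, 1516 to 5947 CPM at Stage 3 and 3284 to 5806 CPM at Stage 4. ath-miR858b had 759 to 1190 CPM at Stage 1, 478 to 663 CPM at Stage 2, 857 to 3049 CPM at Stage 3 and 408 to 1210 CPM at Stage 4. mdm-miR171b had 2432 to 3118 CPM at Stage 1, 1463 to 1634 CPM at Stage 2, 1755 to 6461 CPM at Stage 3 and 660 to 1848 CPM at Stage 4. For these last 2, libraries G and I were the highest of all 12. Library H was inside the ranges of both Stage 1 and Stage 4 for ath-miR858b. For mdm-miR171b it was inside the range of Stage 4 and below all of Stage 1.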

How the data were processed

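Small RNAs of 12 bud libraries were sequenced by the authors, mapped to the apple GDDH13 v1.1 genome and counted per mature sequence. The submitters' processing notes name CASAVA and Bowtie 0.12.9. Trimming and the mismatches allowed are not given in the sources used here. Deposited values were raw read counts of known sequences and of mature strands of de novo hairpins, without normalization. The other 48 columns of library values (normalized values and star strands) were not used, and 4 emptied lines of the de novo table were not analysed here. The 254 known and 154 de novo sequences shared 38, which left 370.

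Columns were matched to stages by library letters. Libraries carry no replicate number. The labels place Stage 3 in ecodormancy and were followed, although 1 display of the study shades its date as endodormancy.

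Counts were kept by filterByExpr (minimum count 10, minimum total 15), TMM-normalized and tested with edgeR 4.0.16 in R 4.3.3 (quasi-likelihood F test, 1 model with a mean for each of the 4 stages, Benjamini-Hochberg over all tested features). The SE is the log2 fold change divided by the square root of F. Family sums used the same library sizes. Shares were compared by exact two-sided permutation of all 20 splits. The p-values measure the spread between pooled replicates. No molecular identifiers were used, so intervals cover counting error only. The test was checked on simulated counts. DESeq2 1.42.0, other scalings (1 of them by the sequenced reads the study lists), filters and libraries left out were alternatives. Python 3.11.15, pandas 2.3.3, NumPy 2.4.6, SciPy 1.17.1 and matplotlib 3.10.9 were used.

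Named sequences were those with an adjusted p under 0.05, the 12 smallest p in each direction, the 17 of the study and the most abundant of each listed family. Those not described singly stand in the counts. Added after their values were seen were cme-miR319c, mdm-miR319c-3p, t03063567_x79, mdm-miR482d, mdm-miR171i, mdm-miR171j, mdm-miR10987, mes-miR319h, ppe-miR858, lus-miR167a and the miR166 and miR396 variants beyond the rule. The comparison and the lists were chosen with earlier results of these data known.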

Additional observations from a re-analysis of the deposited data

How the results depend on the processing

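The adjusted calls were few and the count of calls moved. For sequences, 2 passed an adjusted p under 0.05, against 5 with DESeq2, 5 with no filter on low counts (370 tested), 1 with only the 6 libraries fitted, 1 to 7 with a library left out and 17 without libraries D and H together. At an unadjusted p of 0.05 or less, 24 passed, against 15 with at least 10 reads in each of the 6 libraries (130 tested), 15 with only the 6 libraries, 12 to 34 with a library left out and 42 without D and H. For families, 1 passed the adjusted test, against 6 with the likelihood ratio test, 3 with median-of-ratios scaling, 0 with only the 6 libraries (6 at an unadjusted p), 4 with the total of all reads, 2 with the total outside miR165 and miR166, 1 to 7 with a library left out and 10 without D and H. At an unadjusted p, 9 families passed, against 17 without D and H and 6 to 12 with a library left out. The cause was not tested. The calls lay highest without D (6 sequences) and without H (7 sequences).

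Of 37 sequences followed under every alternative, 33 kept their direction in all of them, and t11329296_x5768 kept its call in all 17 alternatives that held it. The log2 fold change turned for t00205877_x43290 (0.030 with the total of all reads, 0.24 with the total of mature reads, -0.67 to 0.076 with a library left out), t08515395_x8579 (0.11, 0.34, -0.68 to 0.54 in the same order, and 0.67 without D and H), mdm-miR159d (-0.036 with the total outside miR165 and miR166) and mdm-miR319a (0.084 with the total of mature reads).

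The difference in the share of 24-nucleotide reads, 0.25 percentage points, became -2.11 among the reads outside miR165 and miR166 and -0.20 to 0.59 with a library left out. The other shares kept their direction, with -16.7 to -10.0 percentage points for miR165 and miR166, 1.37 to 1.97 for 20, -5.06 to -3.53 for 21 and 1.61 to 3.27 for 22 nucleotides with a library left out. No paired analysis was possible because the columns carry library numbers and no replicate number. Ratios of sequences at few or no reads with a library left out were added after the values were seen. The scaling and the shares by the total behind the deposited normalized values were not run, since those columns were not used. Depth limits sequences with few reads, since 3 reads were 1.73 to 3.69 CPM.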
